A study of Rattus norvegicus with 6 samples.

Results

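The immediate early genes Jun, Junb and Ier2 were examined in rat cortical astrocytes that had bundled into tissue-engineered rostral migratory streams (TE-RMSs) and in astrocytes kept in planar culture. A list of 10 such genes was drawn up (Fos, Fosb, Fosl1, Jun, Junb, Egr1, Egr2, Ier2, Ier3 and Atf3), and a gene was kept where the study's differential expression table paired its name with an Ensembl identifier. The part of that table that was read holds the 1517 genes with the smallest p-values for TE-RMS against planar astrocytes, out of 23940 genes counted. It paired 3 of the 10 names, at positions 27 (Junb), 684 (Jun) and 993 (Ier2) in order of p-value, and the other 7 were not analysed here. All 3 passed the filter on low counts. The genes were thus chosen by their p-values for the difference between the conditions, and that difference is described below, with nothing read from its test. The last gene read was Igf1r, the receptor of insulin-like growth factor, with a log2 fold change of -1.24 (standard error 0.27), and genes past it have no name here.

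Immediate early genes are switched on within minutes of a stimulus, without new protein synthesis, and their short-lived messages fall away soon after it ends. Many encode transcription factors. JUN and JUNB are basic leucine zipper (bZIP) proteins that pair with each other or with FOS and ATF proteins to form AP-1, and JUNB can restrain transcription driven by JUN. Kinases of the MAPK family, the serum response factor SRF and CREB-type factors bring these genes on, and in astrocytes they are known to respond to injury, growth factors and mechanical stress.

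The study asked how gene expression differs between astrocytes in the 3D bundles and in 2D culture. Both groups were made from cortical astrocytes of Sprague-Dawley pups at postnatal day 0 to 1, used at passage 4, with no genetic change or drug in either group. For planar culture (n = 3 libraries) cells were plated on polymerized collagen in wells, and for TE-RMSs (n = 3 libraries) they were seeded into collagen-coated agarose microchannels, both in the same medium and for the same number of days. There were 3 runs from different animals, called July, September and October after their labels, and each run gave 1 library of each kind. Only well-bundled TE-RMSs were taken. They came from sequential fabrication days, were kept frozen in RNAlater and were then pooled, whereas planar wells were plated on the last of those days and were pooled and extracted fresh. Culture format, selection, pooling and preservation thus changed together and cannot be told apart in any difference given here. Wherever 3 values of a condition stand together below, they follow the order of the runs from July to October. Planar libraries totalled 70682593, 70478784 and 56483332 estimated counts, and TE-RMS libraries totalled 54601354, 77277336 and 64537115, so neither condition was deeper in every run.

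Promoter sequences are shown to set the binding sites known for this pathway beside the genes that carry them. They are the 250 bases before the annotated start in RefSeq on GRCr8, a later build than the mRatBN7.2 used for counting, all on the plus strand and written 5′ to 3′. Capitals mark every match to 6 motifs searched on both strands, namely the CRE (TGACGTCA), bound by CREB and ATF proteins, the AP-1 site TRE (TGACTCA), the CArG box, bound by SRF, the EGR site (GCGNGGGCG), the CCAAT box (CCAAT) and the TATA box (TATAAA). A CArG box can contain a TATA box, but none of the matches shown overlap. Junb (chr19:40080876-40081125), Ier2 (chr19:40399123-40399372) and Srf (chr9:21923826-21924075), the gene of the factor itself, were in the promoter table.
Junb: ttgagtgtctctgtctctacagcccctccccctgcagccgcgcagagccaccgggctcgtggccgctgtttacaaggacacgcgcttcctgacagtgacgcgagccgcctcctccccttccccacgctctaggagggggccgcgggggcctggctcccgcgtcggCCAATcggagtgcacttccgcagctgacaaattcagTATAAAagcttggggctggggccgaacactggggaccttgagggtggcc
Ier2: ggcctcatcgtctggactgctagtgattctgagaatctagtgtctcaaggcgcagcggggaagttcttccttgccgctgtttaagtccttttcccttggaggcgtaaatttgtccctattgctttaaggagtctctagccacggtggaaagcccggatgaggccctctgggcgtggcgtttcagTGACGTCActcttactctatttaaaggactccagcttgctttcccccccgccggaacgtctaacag
Srf: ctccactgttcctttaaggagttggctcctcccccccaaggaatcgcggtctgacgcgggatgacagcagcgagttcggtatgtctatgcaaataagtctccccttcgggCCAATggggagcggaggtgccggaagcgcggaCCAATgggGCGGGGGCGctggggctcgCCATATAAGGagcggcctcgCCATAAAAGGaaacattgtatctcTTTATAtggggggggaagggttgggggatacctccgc

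The Ier2 window held a CRE that began 66 bases before the start. A CRE was present in 1.59% of the 33469 promoter windows of this length. The Junb window held a CCAAT box 85 bases and a TATA box 49 bases before the start, motifs present in 34.0% and 12.9% of windows. The Srf window held CArG boxes that began 81 and 61 bases before the start, against 1.5% of windows with any CArG box and 0.0209% with 2 or more. It also held an EGR site, found in 4.29% of windows, and 2 CCAAT boxes. A TATA box on the minus strand, which reads TTTATA as printed, lay 37 to 32 bases before the start. No TRE, found in 4.05% of windows, was matched in these 3 sequences.

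Jun encodes the AP-1 subunit c-Jun, a driver of cell proliferation and stress responses. It is ENSRNOG00000026293, on chromosome 5 of mRatBN7.2 from 109893145 to 109897656 on the minus strand. Planar astrocytes gave 26695, 16802 and 21639 counts of Jun, and TE-RMS astrocytes gave 13892, 7537 and 7441. As CPM, which are counts scaled to library size, these were 395, 232 and 358 in planar and 245, 105 and 117 in TE-RMS astrocytes. The July TE-RMS library was the highest of its group and lay above the September planar library, so the groups overlapped. Mean Jun was 328 ± 85.2 CPM (SD, n = 3) for planar against 156 ± 77.6 CPM (SD, n = 3) for TE-RMS libraries, a 2.11-fold difference. Within each run Jun was lower in the TE-RMS library, with log2 ratios of -0.69, -1.15 and -1.61, and the fitted log2 fold change was -1.15 (standard error 0.19). As in every bulk library, fewer cells with a transcript and less of it per cell cannot be told apart.

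Junb encodes JunB, the AP-1 subunit with weaker activation and a role in holding back c-Jun. It is ENSRNOG00000067725, on chromosome 19 from 23176294 to 23178035 on the plus strand, and the study's annotation lists this entry as a pseudogene, whereas RefSeq has Junb as protein coding. For Junb the planar counts were 18418, 29829 and 15236 and the TE-RMS counts 2221, 2543 and 3312. The CPM were 272, 412 and 252 in planar and 39.2, 35.4 and 52.2 in TE-RMS astrocytes. Every TE-RMS library lay far below every planar one, and September had both the highest planar and the lowest TE-RMS value. Mean Junb was 312 ± 87.2 CPM (SD, n = 3) against 42.2 ± 8.82 CPM (SD, n = 3), a 7.39-fold difference. The within-run log2 ratios were -2.80, -3.54 and -2.27, and the fitted log2 fold change was -2.87 (standard error 0.23).

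Ier2 encodes a small nuclear protein that takes part in transcriptional control and cell motility. It is ENSRNOG00000067274, on chromosome 19 from 23494184 to 23499211 on the plus strand, with its start 318 kb from that of Junb. Ier2 was counted 6541, 7331 and 3174 times in planar and 1751, 2068 and 2422 times in TE-RMS astrocytes. The CPM were 96.7, 101 and 52.5 in planar and 30.9, 28.8 and 38.2 in TE-RMS astrocytes. The groups did not overlap, and October had the lowest planar and the highest TE-RMS value, so the gap was narrowest there. Mean Ier2 was 83.5 ± 26.9 CPM (SD, n = 3) against 32.6 ± 4.93 CPM (SD, n = 3), a 2.56-fold difference. The within-run log2 ratios were -1.65, -1.82 and -0.46, and the fitted log2 fold change was -1.31 (standard error 0.25).

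**Figure D1:**
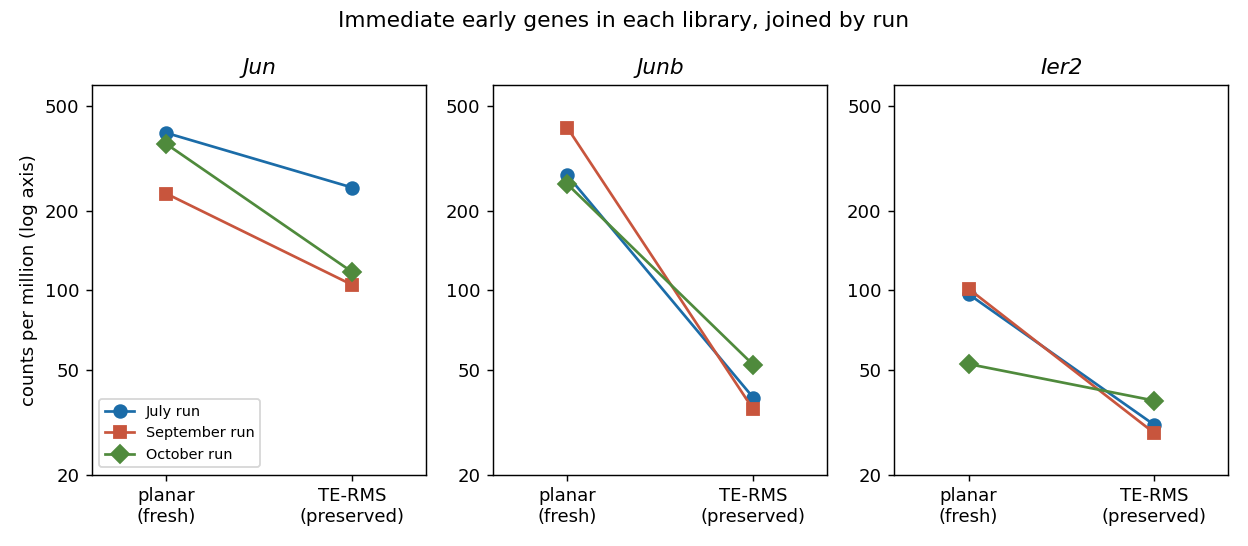
CPM of Jun, Junb and Ier2 in the 6 libraries, on a log axis, with the planar and TE-RMS library of one run joined by a line. All 9 lines slope down, and the Junb lines, from 252 to 412 CPM in planar to 35.4 to 52.2 CPM in TE-RMS astrocytes, are the steepest in each run.

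With runs blocked, edgeR called all 3 genes lower at an adjusted p under 0.05. It called 18.6% of the 16331 tested genes, 9.28% of the tested genes as lower and 9.36% as higher. They were named because of small p-values in this contrast, so nothing is read from that count. Without the run in the model Jun did not pass. Junb and Ier2 were separated between the conditions in the lower direction, as were 16.1% of tested genes, and all 3 genes were lower in every run, as were 26.8%. The median log2 fold change of all tested genes was -0.12. Of the 500 genes nearest to each in mean level, 0 had a lower log2 fold change than Junb, 8 than Jun and 21 than Ier2, a place that the choice by p-value largely set.

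**Figure D2:**
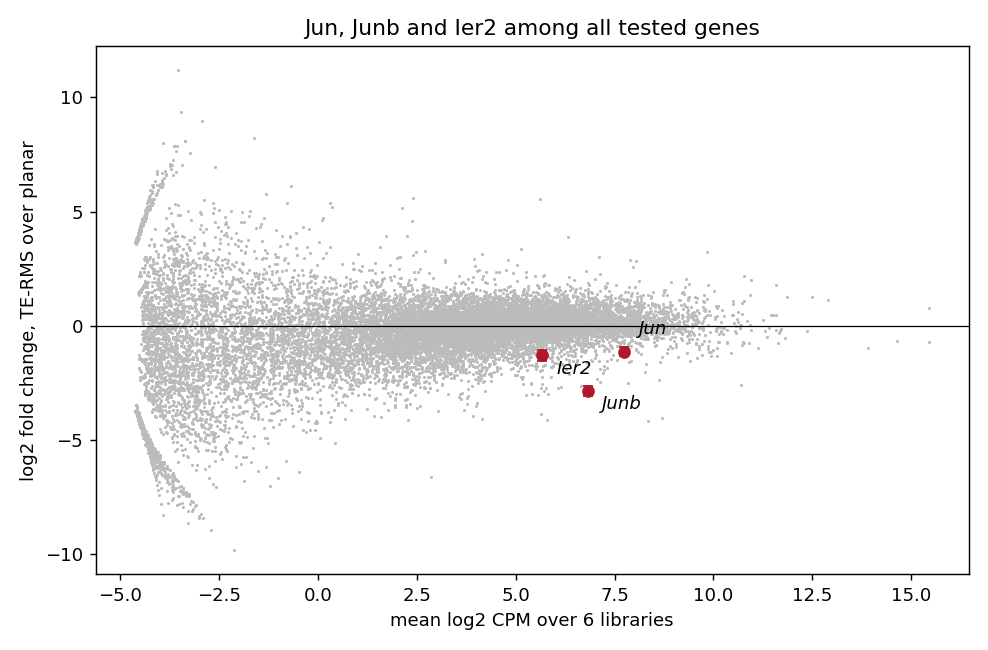
Fitted log2 fold change, TE-RMS over planar, against the mean log2 CPM of each of the 16331 tested genes (grey), with Jun, Junb and Ier2 in red and bars of 1 standard error. The red points lie at mean log2 CPM of 7.75, 6.82 and 5.67, and because these genes were chosen by p-value in this contrast, their place below 0 is no finding.

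The 3 genes did not fall by the same amount, and their order changed between runs. The log2 ratio of Junb was below that of Jun by 2.11, 2.39 and 0.66 in turn. Jun was the least changed gene in July and September, with a ratio above that of Ier2 by 0.96 and 0.67, but in October Ier2 was the least changed and the difference was -1.15. Junb was the most changed gene in all 3 runs. These are ratios of ratios, so gene length does not enter them.

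The balance of the genes within a library shifted accordingly. For each count of Junb there were 1.45, 0.563 and 1.42 counts of Jun in planar and 6.25, 2.96 and 2.25 in TE-RMS astrocytes. Relative to Junb, every TE-RMS library held more Jun than every planar library. This restates the larger fall of Junb, a gene chosen by its p-value. Of the 500 genes nearest to Junb in mean level, 0 had a lower log2 fold change. Ratios of other genes to Junb were not compared, so the shift is not particular to this pair. Jun to Ier2 stood at 4.08, 2.29 and 6.82 counts in planar and 7.93, 3.64 and 3.07 in TE-RMS astrocytes. That ratio overlapped between the groups, being higher in the TE-RMS library in July and September and lower in October. Junb to Ier2 stood at 2.82, 4.07 and 4.80 counts in planar astrocytes and in a narrow band of 1.27, 1.23 and 1.37 in TE-RMS astrocytes. Between genes these ratios are not corrected for length, so only their change from library to library can be read.

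Differences between runs are another contrast than the one by which the genes were chosen, but its test uses the same residual spread, so the choice was not neutral for it. EdgeR's joint quasi-likelihood test of the run terms, with the condition in the model, gave an adjusted p of 0.0737 for Jun, 0.835 for Junb and 0.861 for Ier2, while 3.21% of the 16331 tested genes and 11.8% of the genes read from the table passed 0.05. DESeq2, with a likelihood ratio test on those terms, gave Jun an adjusted p of 0.00578, so whether Jun differed between runs depended on the tool. Runs made up 31.4% of the sum of squares of log2 CPM for Jun, against a median of 35.3% over all tested genes. For Junb they made up 0.412% and for Ier2 3.24%. These are shares of a total that includes the difference between the conditions, by which the genes were chosen, so a low share was favoured by the choice. In Jun the July libraries were the highest of both conditions and the September libraries the lowest of both, whereas in Junb and Ier2 no run was high or low in both.

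The size of the difference itself varied from run to run. The SD of the 3 within-run log2 ratios was 0.46 for Jun, 0.64 for Junb and 0.74 for Ier2. Among the 500 genes nearest in mean level the median SD was 0.23, 0.25 and 0.27, and the 3 genes stood above 89%, 95.4% and 96.6% of them. Those 500 genes were matched in mean level alone. They were not matched in the size of the difference, by which the 3 genes were in effect chosen, so these places are description only. Compared with all tested genes, where low counts add spread, they stood above 44.5%, 56.3% and 60.8%. The run with the narrowest gap was July for Jun and October for Junb and Ier2.

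**Figure D3:**
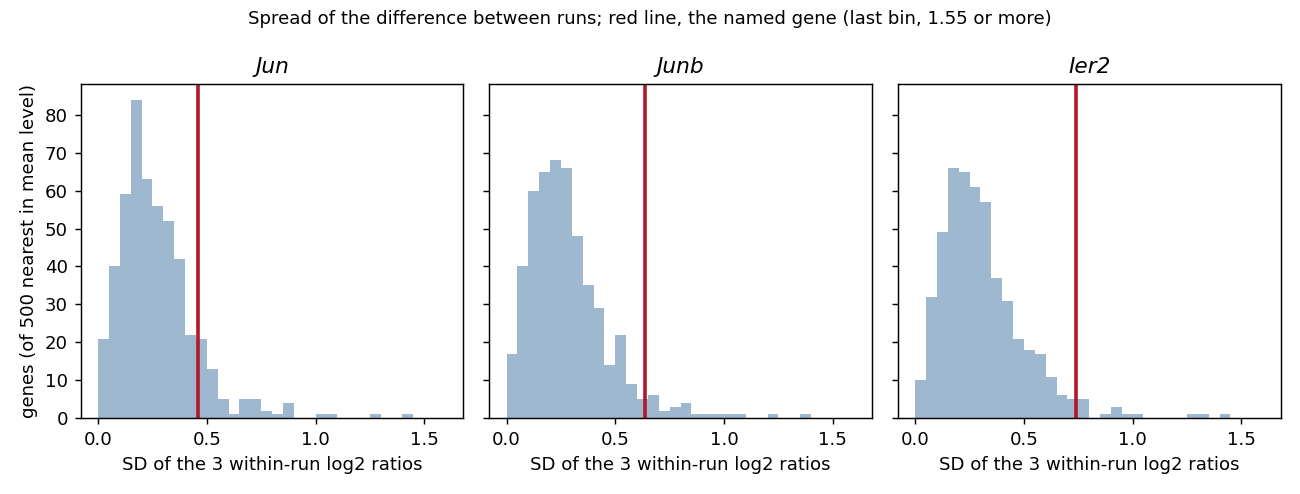
Histograms of the SD of the 3 within-run log2 ratios over the 500 genes nearest in mean level to Jun, Junb and Ier2, with a red line at the named gene (0.46, 0.64 and 0.74). Each line stands in the right part of its histogram.

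Other genes of the pathway were taken from lists of known members, and only those named in the same table could be described. Nearly all genes of that table, 99.7%, passed the edgeR test and 50.2% passed it as lower, so a pass by a listed gene carries no information and only directions are described. Their median log2 fold change was -0.77. Of 45 bZIP genes, 10 were named, Jun and Junb among them, and TE-RMS astrocytes had less of 7 and more of 3, with a median log2 fold change of -1.23. Cebpd, a C/EBP factor of acute responses, had 433, 486 and 860.2 CPM in planar and 221, 99.4 and 247 CPM in TE-RMS libraries. The groups did not overlap, with a log2 fold change of -1.69 (standard error 0.23). Atf5, Tef, Nfe2l1 and Atf6b were also lower in every run, with log2 fold changes from -1.40 to -1.23.

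Atf2, whose protein dimerizes with JUN and binds the CRE, went the other way, with 54.8, 54.4 and 36.2 CPM in planar and 151, 159 and 118 CPM in TE-RMS libraries. All TE-RMS libraries lay above all planar ones (log2 fold change 1.57, standard error 0.16). Atf1, of the CREB family, and Nfe2l2, which encodes the antioxidant regulator NRF2, were the other higher genes, at 0.85 and 0.74. The groups of Nfe2l2 overlapped. The named bZIP genes thus differed in direction, with Jun and Junb lower and their possible partner Atf2 higher.

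Of 63 other immediate early and primary response genes, 20 were named, Ier2 among them, and TE-RMS astrocytes had less of 18 and more of 2, each in all 3 runs. Their median log2 fold change was -1.38. In 15 the groups did not overlap in the lower direction and in 1 in the higher, against 45.5% and 44.5% of the genes read from the table and 16.1% and 13.2% of all tested genes. The joint edgeR test of the runs called 6 of the 20 (adjusted p under 0.05), against 11.8% of the genes read.

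Ccn1, a matrix protein gene induced by growth factors and by stretch, was the lowest of them by log2 fold change. It had 54.5, 36.3 and 51.6 CPM in planar and 3.99, 2.38 and 4.73 CPM in TE-RMS astrocytes (log2 fold change -3.72, standard error 0.24). Klf2, a zinc finger factor known to respond to shear stress, had 64.2, 62.0 and 12.9 CPM in planar and 5.63, 6.53 and 1.73 CPM in TE-RMS astrocytes (log2 fold change -3.22, standard error 0.24). October was low for Klf2 in both conditions, and the gap was of like size in all runs. Ccn2, Edn1 (the peptide endothelin 1), Ier5l, Rcan1 (an inhibitor of calcineurin) and Gadd45b (a growth arrest gene) were lower by log2 fold changes from -2.59 to -1.97. Ier5l, of the same IER family as Ier2, had within-run log2 ratios of -2.42, -2.37 and -2.28, closer together than those of Ier2.

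Ptgs2, the inducible cyclooxygenase that starts prostaglandin synthesis, was the main exception. It had 2.16, 5.94 and 3.41 CPM in planar and 7.14, 64.8 and 28.9 CPM in TE-RMS libraries, and all TE-RMS values lay above all planar ones (log2 fold change 2.78, standard error 0.34). Bhlhe40, a repressor of the circadian clock, was the other higher gene, at 0.96 (standard error 0.16), and its groups overlapped. Early response genes named here were therefore not lower without exception.

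Of 32 upstream kinases and factors, 4 were named, with 2 lower and 2 higher in TE-RMS astrocytes. Srf had 18.7, 9.66 and 13.9 CPM in planar and 2.29, 1.25 and 2.46 CPM in TE-RMS libraries, with no overlap (log2 fold change -2.82, standard error 0.35). Fhl2, which encodes a partner of SRF and AP-1, had 43.6, 56.1 and 23.5 CPM in planar and 8.71, 11.7 and 6.11 CPM in TE-RMS astrocytes (log2 fold change -2.18, standard error 0.22). Mapk9 (JNK2, a kinase that phosphorylates c-Jun) had 60.0, 61.7 and 41.7 CPM in planar and 103, 169 and 99.1 CPM in TE-RMS libraries. It was higher in every run and without overlap, by a log2 fold change of 1.16 (standard error 0.18). Transcript levels do not report the activity of a kinase.

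**Figure D4:**
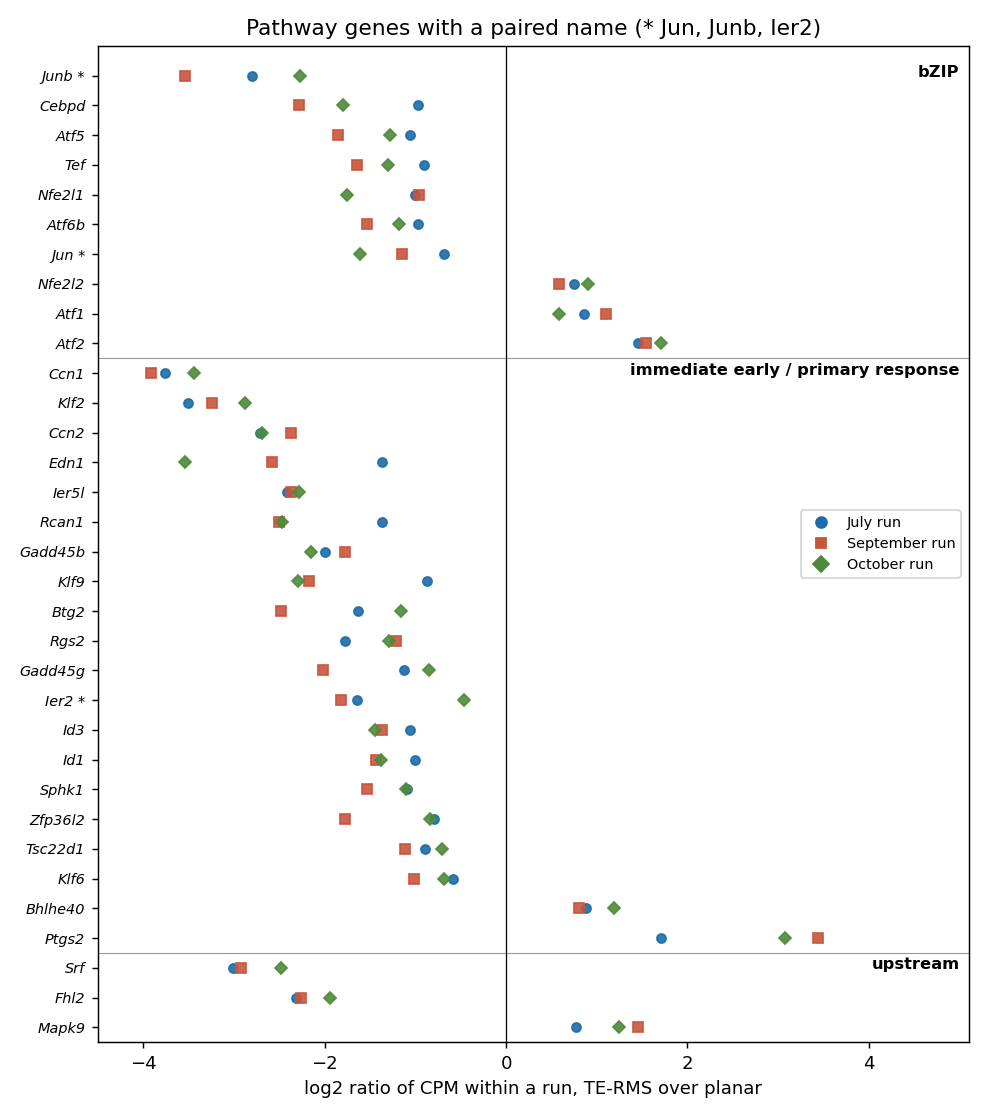
Log2 ratio of CPM within each run, TE-RMS over planar, for the named bZIP genes, immediate early and primary response genes and 3 upstream genes, with 1 symbol for each run and asterisks at Jun, Junb and Ier2. For every gene the 3 symbols lie on one side of 0, and Ptgs2, Bhlhe40, Atf1, Atf2, Nfe2l2 and Mapk9 lie on the higher side.

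Among the 19 named early response genes with a promoter window, 3 (Btg2, Ier2 and Rcan1) held a CRE, which is 15.8%, beside 1.59% of all windows. Klf6 held a CArG box and Rcan1 a TRE, each 5.26% of the 19, beside 1.5% and 4.05% of all windows. A CCAAT box was present in 12 (63.2%) and a TATA box in 7 (36.8%), beside 34.0% and 12.9%. Of the 7 named bZIP genes with a window, Junb among them, 0 held a CRE and 0 a CArG box. Of the upstream genes, Fhl2 and Srf had a window and both held a CArG box. A listed gene was counted once if any of its windows matched, whereas the shares of all windows count each window. A gene with several windows thus had more chances of a match, and the shares are not strictly alike. A match shows the letters alone, and binding was not measured.

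Genes known to be regulated by AP-1 went in both directions, with 9 of 18 named, 5 lower and 4 higher (median log2 fold change -1.24). Tnfrsf12a, the TWEAK receptor, Tgfb1, Loxl2 and Itga5 were among the lower genes, with log2 fold changes from -2.99 to -1.24. Hmox1, the heme-degrading oxygenase, was higher by 2.89, the matrix protease gene Mmp3 by 2.34, the tissue factor gene F3 by 1.15 and the adhesion receptor gene Cd44 by 0.84. The groups of F3 and Cd44 overlapped. Mmp3 had 2.48, 1.91 and 2.71 CPM in planar and 8.92, 32.3 and 6.24 CPM in TE-RMS libraries. Its September ratio stood apart, and the groups did not overlap.

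Over the 6 libraries, the 1500 other named genes were ranked by how closely their centred log2 CPM followed each of the 3 genes. Nearest to Jun was Ago1, of the RNA silencing machinery, with a root-mean-square difference of 0.12, followed by Ap4b1, Wdr6, Hipk2 and Map1a, up to 0.17. For Junb the nearest were Col6a2, a collagen VI chain, at 0.28, then Dok1, the heat shock gene Hspa1b, Sv2a and Erf, a repressor of the ETS family, up to 0.33. For Ier2 they were Dgkz at 0.18, Rab13, Myl6, the intermediate filament gene Nes and Vasp, up to 0.25. Ier2 was closer to Jun (0.62) than Junb was (1.07), although Junb and Ier2 had the higher Pearson correlation over the 6 libraries, 0.94 against 0.72 for Jun and Junb and 0.63 for Jun and Ier2. The libraries share runs and a condition difference, and that difference enters each correlation.

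**Figure D5:**
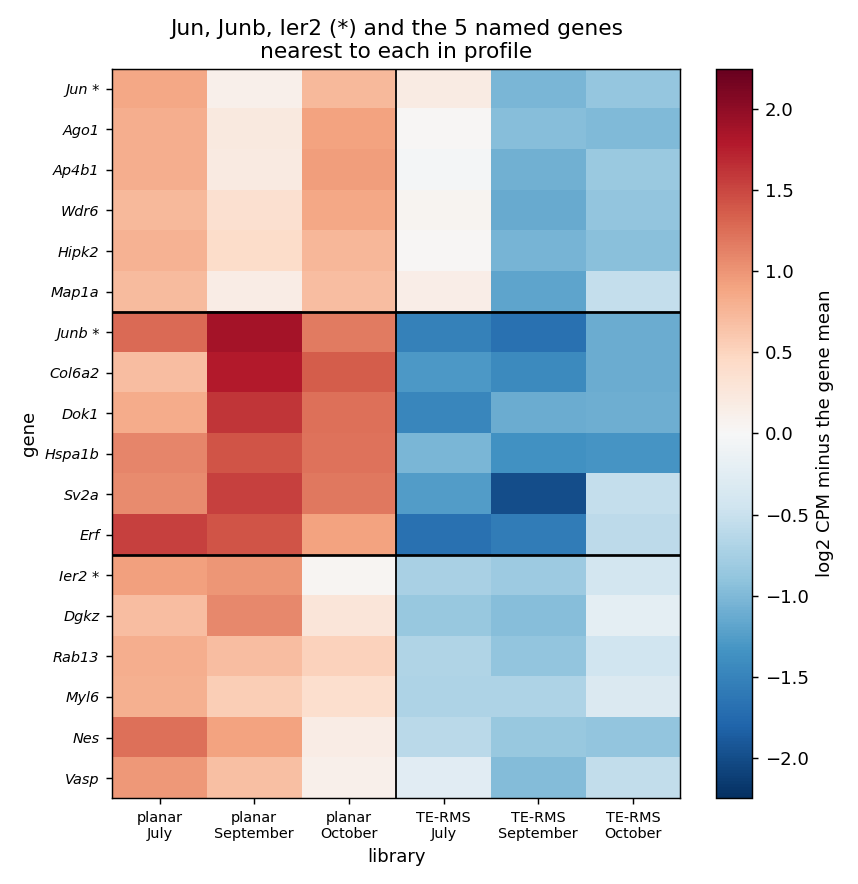
Log2 CPM minus the mean of the gene, in the 6 libraries, for Jun, Junb and Ier2 (asterisks) and the 5 named genes nearest to each. In the Jun block the July TE-RMS library is near the gene mean and stands apart from the other TE-RMS libraries, in the Junb block the September planar library is mostly the highest, and in the Ier2 block the October planar library is the lowest of the planar libraries.

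Junb and Ier2 lie close together on chromosome 19. The table names 3 other genes that start within 1 Mb of both, and all were lower in TE-RMS astrocytes in every run without overlap, where 45.5% of the genes read from the table and 16.1% of all tested genes did not overlap in that direction. These were Tnpo2 (log2 fold change -1.34), a nuclear import receptor gene, Nfix (-2.24), a factor of glial development that lies between the pair, and Zswim4 (-2.73). Genes of the interval without a name were left out, so the stretch is only partly described. The single named gene within 1 Mb of Jun, Plaa, was higher by 0.87.

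The named heat shock genes, a class that also answers to stress and handling, were lower in TE-RMS libraries. Of 15 chaperone genes only 3 were named, and all were lower in every run. By comparison, 50.2% of the genes read from the table were called lower, and 26.8% of all tested genes were lower in all 3 runs. The choice by p-value applies to these 3 genes too. Their summed level was 3474, 2078 and 2216 CPM in planar and 1261, 872 and 1097 CPM in TE-RMS libraries, most of it Hspb1. Hspa1b had 38.4, 48.3 and 41.9 CPM in planar and 8.77, 7.01 and 7.12 CPM in TE-RMS astrocytes (log2 fold change -2.49, standard error 0.23). Its reads can be shared with a near-identical Hsp70 gene. The part of handling in the immediate early genes was not tested.

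The labelled cell type was checked with the astrocyte markers that had a name, 5 of 13. Their summed level was 2399, 1738 and 2957 CPM in planar and 8055, 5106 and 9447 CPM in TE-RMS libraries, most of it Apoe. The glutamate transporter genes Slc1a3 and Slc1a2, the gap junction gene Gja1 and Apoe were higher in TE-RMS astrocytes and Fgfr3 was lower. Slc1a3 was present at 241 to 275 CPM in planar and 674 to 882 CPM in TE-RMS libraries, whereas Slc1a2 was under 2 CPM in planar libraries. No marker named was at 0 counts in any library.

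Markers of other cells were named in part. Of 12 fibroblast, mural and endothelial markers 4 were named (Acta2, Col1a1, Col1a2 and Col3a1). All 4 were lower in every run, where 50.2% of the genes read from the table were called lower. They summed to 850, 439 and 701 CPM in planar and 181, 146 and 229 CPM in TE-RMS libraries, with Col1a2 the most abundant. Among TE-RMS libraries the runs stood in the same order as for Junb and Ier2 but not Jun. Among planar libraries they stood in the same order as for Jun but not Junb or Ier2. With so few runs an order can match by chance, and its share among all tested genes was not counted. Nothing is read from these orders. Of 12 microglia markers only Cd68 was named, at 1.30, 15.6 and 0.778 CPM in planar and 8.69, 85.4 and 3.75 CPM in TE-RMS libraries. Of 7 neuron markers Snap25 and Map2 were named, summing to 5.94 to 12.7 CPM in planar and 18.1 to 91.3 CPM in TE-RMS libraries, most of it Map2 except in September, when Snap25 reached 60.8 CPM. Of 10 oligodendrocyte lineage markers 2 were named, of which Cspg4 was lower, at 4.02, 4.91 and 5.095 CPM in planar and 0.705, 0.862 and 0.0945 CPM in TE-RMS libraries. The part of these cells in the differences of Jun, Junb and Ier2 was not tested.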

How the data were processed

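RNA of 3 TE-RMS and 3 planar libraries was sequenced with a non-stranded kit, so antisense overlaps were not resolved. Per the study's methods, reads went through fastp, Salmon (Ensembl annotation of mRatBN7.2) and tximeta. What the authors deposited are estimated counts per gene, in whole numbers and not normalized. Salmon divides reads between similar transcripts by probability.

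The filter kept 16331 of 23940 genes, those with 10 or more counts over the 6 libraries. Scaling was by TMM and testing by the quasi-likelihood F test of edgeR 4.0.16 (R 4.3.3), runs being blocked, with Benjamini-Hochberg adjusted p-values called under 0.05. The methods treat libraries of one run as a pair, and deviations from the condition mean correlated at 0.18 to 0.27 within runs and -0.16 to -0.07 between them. Log2 fold changes used a prior count of 0.125 and log2 CPM and ratios within runs a prior count of 2. Standard errors are the log2 fold change over the square root of F. Libraries of one condition differed well beyond counting error, at a chi-square per degree of freedom of 250.3 or more. DESeq2 1.42.0 and limma 3.58.1 were alternatives. The edgeR fits were tested on simulated counts.

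Names come from the study's table only, whose own fold changes and p-values were not used beyond the order of its genes. RefSeq identifiers matched none of the Ensembl ones, and its promoters were joined by symbol. For each list up to 8 genes were named, by the size of the fold change, and Atf1, Nfe2l2, Bhlhe40, Btg2, Klf6 and Cd44 were named after their values were seen. Genes nearest in profile and neighbours within 1 Mb were named by rule. Some genes that these rules name are not reported here. The members and lists were chosen with earlier results of these data known.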

Additional observations from a re-analysis of the deposited data

How the results depend on the processing

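Over 12 alternatives each, the log2 fold change stayed between -1.38 and -0.88 for Jun, -3.14 and -2.53 for Junb and -1.70 and -1.05 for Ier2, the extremes coming from leaving out a run. With no replicate block 1441 genes were called in place of 3044, Jun not among them, and DESeq2 with the replicate block called 3945. All 3 genes passed in the other fits, which the choice by p-value favoured. For the run terms, DESeq2's likelihood ratio test called 1257 genes and the stricter filter (at least 10 counts in at least 3 libraries) 224, against 525, and the cause was not tested. The adjusted p of Jun for the runs was 0.00578 by DESeq2 and 0.0737 to 0.151 by the edgeR fits. Depth did not limit these genes, whose lowest count was 1751. With 3 runs, differences between runs rest on 1 library of each kind. The p-values of the blocked fits are set against the spread left after run and condition are fitted to 3 pairs of libraries.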
